A study of Homo sapiens with 2 samples.

Results

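The genes described here are 38 endoplasmic reticulum (ER) chaperones, folding enzymes, unfolded protein response regulators and components of ER-associated degradation (ERAD). The rule is a list of gene names and uses no value, but the names were chosen with earlier results of these data known. Each gene was matched through its Ensembl identifier to 1 row of a count table of 63677 genes. Levels in CPM are counts scaled by library sizes that were adjusted with TMM, as given under the processing. Of the 38, 37 had a mean level of at least 1 CPM over the 2 libraries, as did 15440 genes in all. DERL3 did not, with 21 reads in the lncPSCA library and 20 in the control library.

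Total RNA was sequenced from HGC-27, a cell line of human gastric carcinoma, 48 hours after INTERFERin had been used to introduce a plasmid. In the lncPSCA culture the plasmid was pcDNA3.1 carrying the long non-coding RNA lncPSCA, and in the control culture it was the pcDNA3.1 vector alone. The question is how overexpressed lncPSCA alters the transcriptome, and the share of cells that took up plasmid is not stated. With 1 library per group there was no spread between replicates and no test, so folds carry an exact 95% counting interval only, and "higher" and "lower" compare the lncPSCA library with the control library.

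The lncPSCA library held 23016646 counts and the control library 21552098. The overexpressed RNA has no row under its own name, and the protein-coding gene PSCA had 28699 reads in the lncPSCA library and 22 in the control library. Of 12 gastric and epithelial markers, 3 reached 1 CPM, and TFF1, TFF2, GKN1 and CLDN18 had no reads in either library, which allows up to 0.128 CPM in the lncPSCA library and 0.142 CPM in the control library. The summed level of these 12 markers was 10.8 CPM in the lncPSCA library and 10.2 CPM in the control library, against 3760 and 3776 CPM for 7 mesenchymal markers. VIM and COL1A1 carried that sum. FN1 (2.35-fold), PDGFRB (2.08-fold) and ZEB1 (1.82-fold) were at least 1.5-fold higher in the lncPSCA library. They were 3 of the 6 mesenchymal markers past 1 CPM, against 10.5% of all genes by the 1.5-fold rule given below. The median log2 ratio of the 6 was 0.66. The part of these marker differences in the results for the ER genes was not tested. The 8 immune and endothelial markers summed to 6.34 CPM in the lncPSCA library and 5.55 CPM in the control library, with CD3E, PECAM1 and CDH5 at 0 reads in both.

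Proteins that enter the secretory pathway fold in the ER lumen with the help of the Hsp70 chaperone BiP, lectin chaperones that read their N-glycans, and disulfide isomerases. Chains that fail to fold are drawn back through the membrane by the HRD1 complex and its partners and are degraded by the proteasome, which is ERAD. When unfolded chains build up, 3 membrane sensors (ATF6, IRE1 and PERK) start the unfolded protein response (UPR). ATF6 and the IRE1 product XBP1 act on chaperone and ERAD genes, while PERK acts through the translation of ATF4.

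The 38 genes stayed close to their control levels as a set. They took 0.789% of all reads in the lncPSCA library and 0.807% in the control library, and in bulk RNA fewer cells with a transcript and less of it per cell cannot be told apart. A size rule was used for single genes: a mean of at least 1 CPM, at least a 1.5-fold difference on counts plus a pseudocount of 1, and a counting interval that excludes equality. By this rule HERPUD1 was higher, DERL2 and SELENOS were lower, and the rule called none of the other 34 measured members. Among all 15440 genes the rule called 10.5% higher and 5.41% lower, so the members' share was near the background for lower genes and below it for higher genes. By a stricter rule, at least 2-fold with the interval wholly beyond 1.5-fold, no member was called in either direction, against 3.02% of all genes called higher and 0.596% called lower.

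The median log2 ratio of the 37 members was -0.08, and that of all genes was -0.02. The middle 50% of members ran from -0.18 to 0.11, inside the -0.26 to 0.28 of all genes. The lowest member was SELENOS at -0.65 and the highest HERPUD1 at 0.71. Counting error alone was narrower than many of these small differences: the interval lay above 1 for 12 members and below 1 for 14, and it held 1 for the other 11. Over all genes it lay above 1 for 27% and below 1 for 32.1%.

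**Figure D1:**
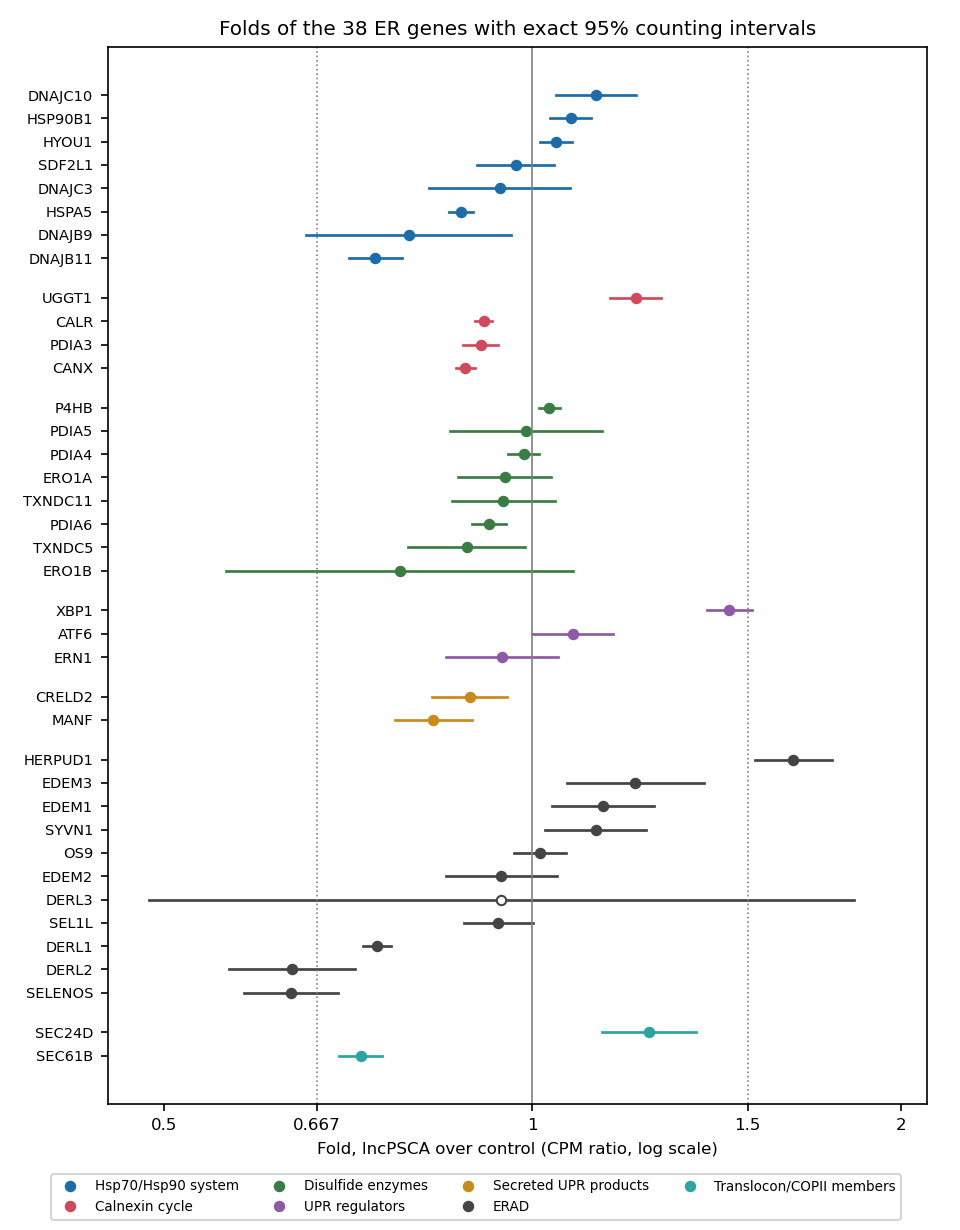
Fold of each of the 38 genes, lncPSCA over control, as a ratio of CPM on a log axis, grouped by role. Points are folds, lines are exact 95% counting intervals, dotted lines mark 1.5-fold in either direction, and the open point is DERL3, below 1 CPM. HERPUD1 lies beyond the upper dotted line, SELENOS and DERL2 lie beyond the lower one, and the other measured genes lie between them.

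Among the Hsp70 and Hsp90 chaperones of the lumen and their partners, none of 8 members met the 1.5-fold rule. HSPA5 encodes BiP, the ER Hsp70 and the usual marker of the UPR. It had 15067 reads (641 CPM) in the lncPSCA library and 15473 reads (733 CPM) in the control library, a fold of 0.874 (0.854 to 0.894). Its promoter is shown because it holds an exact match to the ER stress response element (ERSE), a site through which ATF6 acts on chaperone genes. Variants of the element were not searched. The window runs from 250 bases before to 50 bases after the RefSeq start, on the minus strand at chr9:125241294-125241593 of GRCh38.p14. The exact match is in capitals, and near matches stay in lower case.
HSPA5: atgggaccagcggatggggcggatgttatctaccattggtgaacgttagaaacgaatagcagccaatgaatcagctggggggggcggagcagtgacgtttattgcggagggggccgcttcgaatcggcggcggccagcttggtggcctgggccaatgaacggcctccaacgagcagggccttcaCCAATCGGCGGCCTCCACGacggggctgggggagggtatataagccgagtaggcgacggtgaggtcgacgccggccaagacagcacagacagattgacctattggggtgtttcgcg

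HSP90B1, which encodes the ER Hsp90 GRP94, had 5738 reads (244 CPM) in the lncPSCA library and 4788 reads (227 CPM) in the control library, a fold of 1.08 (1.03 to 1.12). HYOU1, the nucleotide exchange factor GRP170 that works with BiP, stood at 400 CPM in the lncPSCA library and 383 CPM in the control library (1.05-fold, 1.02 to 1.08). Both were slightly higher in lncPSCA, so the 3 abundant lumenal chaperones did not lie on the same side of equality.

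The J-domain partners of BiP also lay on both sides. DNAJB11 (ERdj3), which hands unfolded chains to BiP, had 2917 reads (124 CPM) in the lncPSCA library and 3516 reads (167 CPM) in the control library, a fold of 0.745 (0.709 to 0.782) and the lowest of the 8. Its partner SDF2L1 was at 66.3 CPM in the lncPSCA library and 68.4 CPM in the control library (0.970-fold, 0.902 to 1.04). DNAJB9 (ERdj4), a UPR target that binds IRE1, had 205 reads in the lncPSCA library and 232 in the control library, a fold of 0.793 (0.654 to 0.961). DNAJC3 (P58IPK) had 459 and 438 reads in the lncPSCA and control libraries, and its interval held 1 (0.823 to 1.07). DNAJC10 (ERdj5), a J-protein that reduces disulfides of ERAD substrates, was at 66.8 CPM in the lncPSCA library and 59.2 CPM in the control library (1.13-fold, 1.05 to 1.22), but changed sign with centring along length and GC content.

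In the calnexin cycle, the glycan-reading branch of folding, none of 4 members met the rule. CALR (calreticulin) had 27785 reads (1182 CPM) in the lncPSCA library and 27329 reads (1295 CPM) in the control library, a fold of 0.912 (0.897 to 0.928). CANX (calnexin), its membrane-bound counterpart, had 25912 reads (1102 CPM) in the lncPSCA library and 26367 reads (1250 CPM) in the control library, a fold of 0.882 (0.867 to 0.897). PDIA3 (ERp57), the disulfide isomerase that binds both lectins, was at 304 CPM in the lncPSCA library and 335 CPM in the control library (0.908-fold, 0.878 to 0.938). These 3 genes were lower by similar small amounts, although CALR changed sign when ratios were centred along mean expression or along transcript length and GC content. Their log2 ratios (-0.13 for CALR, -0.18 for CANX and -0.14 for PDIA3) lay near the median of -0.13 of the 3860 most abundant genes. The sensor that returns misfolded glycoproteins to the cycle, UGGT1, lay on the other side, with 3956 reads (168 CPM) in the lncPSCA library and 2922 reads (138 CPM) in the control library (1.22-fold, 1.16 to 1.28), and it too changed sign with centring along length and GC content. A processed copy, PDIA3P1, had 247 reads in the lncPSCA library and 249 in the control library, far fewer than PDIA3. CALR shares 270 exon bases with AC092069.1 on the opposite strand (4124 reads in lncPSCA and 4872 in control), so its count is less certain than its interval.

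The 8 disulfide isomerases and oxidases were the most even of the larger groups, with a median log2 ratio of -0.08, a range of -0.35 to 0.05 and no member past 1.5-fold. P4HB, the classical protein disulfide isomerase, had 20370 reads (866 CPM) in the lncPSCA library and 17699 reads (839 CPM) in the control library, a fold of 1.03 (1.01 to 1.05). PDIA4 (ERp72) was at 407 CPM in the lncPSCA library and 414 CPM in the control library (0.984-fold, 0.956 to 1.01). PDIA6 (P5) was at 334 CPM in the lncPSCA library and 362 CPM in the control library (0.922-fold, 0.894 to 0.952). The 3 abundant isomerases were thus within 10% of their control level, and PDIA4 and PDIA6 changed sign with centring along mean expression. P4HB shares 529 exon bases with AC145207.3 on the opposite strand (7430 reads in lncPSCA and 6516 in control). PDIA6 shares 1033 with ATP6V1C2 on the opposite strand (3043 and 3019 reads), so both counts are less certain than their intervals.

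The less abundant members of this group were PDIA5 (17.5 CPM in lncPSCA and 17.7 CPM in control), TXNDC11 (36.4 and 38.4 CPM), TXNDC5 (27.7 and 31.4 CPM), ERO1A (44.9 and 47.3 CPM) and ERO1B (3.11 and 3.98 CPM). ERO1A and ERO1B encode the oxidases that re-oxidise the isomerases. The interval of TXNDC5 lay below 1 (0.792 to 0.986), and that of each of the other 4 held 1. TXNDC5 shares 2658 exon bases with the read-through gene BLOC1S5-TXNDC5, which had 0 reads in both libraries. How reads over shared exons were assigned is not given in the sources used here.

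Among the regulators, XBP1 stood apart. XBP1 encodes the transcription factor made from the mRNA that IRE1 splices. It had 5610 reads (239 CPM) in the lncPSCA library and 3475 reads (165 CPM) in the control library, a fold of 1.45 (1.39 to 1.51). This was under the 1.5-fold rule, which XBP1 met with scaling to total counts (log2 ratio 0.60) and with centring along mean expression (0.70). Gene-level counts do not separate spliced from unspliced XBP1 mRNA. The sensor genes lay nearer to equality. ATF6 had 1490 reads (63.4 CPM) in the lncPSCA library and 1239 reads (58.7 CPM) in the control library, a fold of 1.08 whose interval only just lay above 1 and whose sign changed with centring along length and GC content. ERN1, the gene of IRE1, had 729 reads (31.0 CPM) in the lncPSCA library and 693 reads (32.8 CPM) in the control library (0.944-fold, 0.850 to 1.05). The XBP1 promoter window that holds its exact ERSE match is shown for comparison with that of HSPA5, with the match in capitals. It lies on the minus strand at chr22:28800520-28800819 of GRCh38.p14.
XBP1: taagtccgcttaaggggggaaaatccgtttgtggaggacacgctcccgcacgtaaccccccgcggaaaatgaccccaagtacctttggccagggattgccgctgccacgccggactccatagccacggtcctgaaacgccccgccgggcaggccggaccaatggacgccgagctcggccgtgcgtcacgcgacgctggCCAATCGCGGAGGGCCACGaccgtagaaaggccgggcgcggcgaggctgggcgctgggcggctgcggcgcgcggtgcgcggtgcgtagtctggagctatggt

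CRELD2 and MANF encode secreted ER proteins that are induced by ER stress. CRELD2 had 1539 reads (65.5 CPM) in the lncPSCA library and 1554 reads (73.7 CPM) in the control library (0.889-fold, 0.828 to 0.954). MANF had 1429 reads (60.8 CPM) in the lncPSCA library and 1545 reads (73.2 CPM) in the control library (0.830-fold, 0.772 to 0.893). Both were below their control level by less than 1.5-fold.

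The ERAD genes were the most spread of the role groups, and all 3 genes past 1.5-fold were among them. Of 10 measured ERAD members, 1 was higher, 2 were lower and 7 were not called, with a median log2 ratio of -0.03. HERPUD1 encodes a ubiquitin-like membrane protein of the HRD1 complex and is a target of the UPR. It had 2091 reads (88.9 CPM) in the lncPSCA library and 1149 reads (54.5 CPM) in the control library, a fold of 1.63 (1.52 to 1.76). It kept this call under all 9 alternative settings, at log2 ratios of 0.68 to 0.83. Its promoter is on the plus strand at chr16:56931892-56932191 of GRCh38.p14. It is shown because it holds exact matches to 2 kinds of stress element, both in capitals. First comes a C/EBP-ATF response element (CARE, the type of site that ATF4 binds) on the opposite strand, then an ERSE of type II.
HERPUD1: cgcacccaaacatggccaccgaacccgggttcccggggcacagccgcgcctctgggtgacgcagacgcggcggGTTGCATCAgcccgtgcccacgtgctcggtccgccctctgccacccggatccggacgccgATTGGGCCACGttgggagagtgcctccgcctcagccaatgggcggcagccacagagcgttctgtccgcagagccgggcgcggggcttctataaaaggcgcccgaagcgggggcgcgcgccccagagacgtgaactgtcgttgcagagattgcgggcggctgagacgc

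SELENOS encodes VIMP, a selenoprotein that brings the p97 ATPase to the ER membrane. It had 855 reads (36.4 CPM) in the lncPSCA library and 1208 reads (57.3 CPM) in the control library, a fold of 0.635 (0.581 to 0.694). SELENOS fell short of the rule when log2 ratios were centred along mean expression (-0.57) or along transcript length and GC content (-0.48). DERL2, a derlin of the retrotranslocation machinery, had 478 reads (20.3 CPM) in the lncPSCA library and 674 reads (31.9 CPM) in the control library, a fold of 0.636 (0.565 to 0.717). DERL2 shares 301 exon bases with MIS12 on the opposite strand, which had 442 reads in the lncPSCA library and 389 in the control library. DERL1, its more abundant relative, had 10622 reads (452 CPM) in the lncPSCA library and 12769 reads (605 CPM) in the control library (0.747-fold, 0.728 to 0.766). DERL1 shares 396 exon bases with TBC1D31 on the opposite strand, which had 3198 reads in the lncPSCA library and 2825 in the control library. Both measured derlins and the VIMP gene, which encodes a derlin partner, were below their control level, DERL1 by less than 1.5-fold. This was not particular to them: of 23 further ERAD genes outside the members, 20 had a log2 ratio below 0, with a median of -0.29.

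The remaining ERAD genes differed little. SYVN1, the ubiquitin ligase HRD1, was at 41.9 CPM in the lncPSCA library and 37.2 CPM in the control library (1.13-fold, 1.02 to 1.24). It shares 398 exon bases with FAU on the same strand (3059 reads in lncPSCA and 3214 in control). It also shares 356 with MRPL49 on the opposite strand (3041 and 3058 reads), so its count is uncertain. The HRD1 scaffold SEL1L was at 82.7 CPM in the lncPSCA library and 88.1 CPM in the control library (0.938-fold), with an interval that held 1. The lectin OS9 was at 146 CPM in the lncPSCA library and 144 CPM in the control library (1.01-fold, 0.966 to 1.07). Of the mannosidase-like proteins that mark glycoproteins for disposal, EDEM1 had a fold of 1.14 (1.04 to 1.26), EDEM2 of 0.943 (0.850 to 1.05) and EDEM3 of 1.21 (1.07 to 1.38).

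The remaining pair of members acts in transport across and out of the ER. SEC61B, a subunit of the translocon, had 4305 reads (183 CPM) in the lncPSCA library and 5336 reads (253 CPM) in the control library (0.724-fold, 0.695 to 0.754). SEC24D, a cargo adaptor of COPII vesicles, had 1197 reads (50.9 CPM) in the lncPSCA library and 862 reads (40.9 CPM) in the control library (1.25-fold, 1.14 to 1.36). They lay on opposite sides of equality, neither past 1.5-fold.

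Levels were compared between genes after scaling reads by exon length, as TPM (reads per exon base, brought to the same total in each library). CALR was the most abundant member at 1398 TPM in the lncPSCA library and 1470 TPM in the control library. CANX (567 and 617 TPM in the lncPSCA and control libraries), SEC61B (494 and 654 TPM), HSPA5 (526 and 578 TPM), P4HB (524 and 487 TPM) and PDIA4 (399 and 389 TPM) followed. SEC61B lay above CANX, HSPA5 and P4HB in the control library and below them in the lncPSCA library, so its place among them is not fixed. CANX, HSPA5 and P4HB kept their order. PDIA6, PDIA3, DERL1, XBP1, SDF2L1, HYOU1 and HSP90B1 lay between 149 and 272 TPM in both libraries. Folding factors and ERAD genes differed far more in level than any member did between the libraries: EDEM3 was at 9.73 TPM in lncPSCA and 7.69 TPM in control, ERO1B at 1.86 and 2.29 TPM, and DERL3 at 0.755 and 0.769 TPM. DERL3 shares 2923 exon bases with SMARCB1 on the opposite strand, so its count is uncertain.

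**Figure D2:**
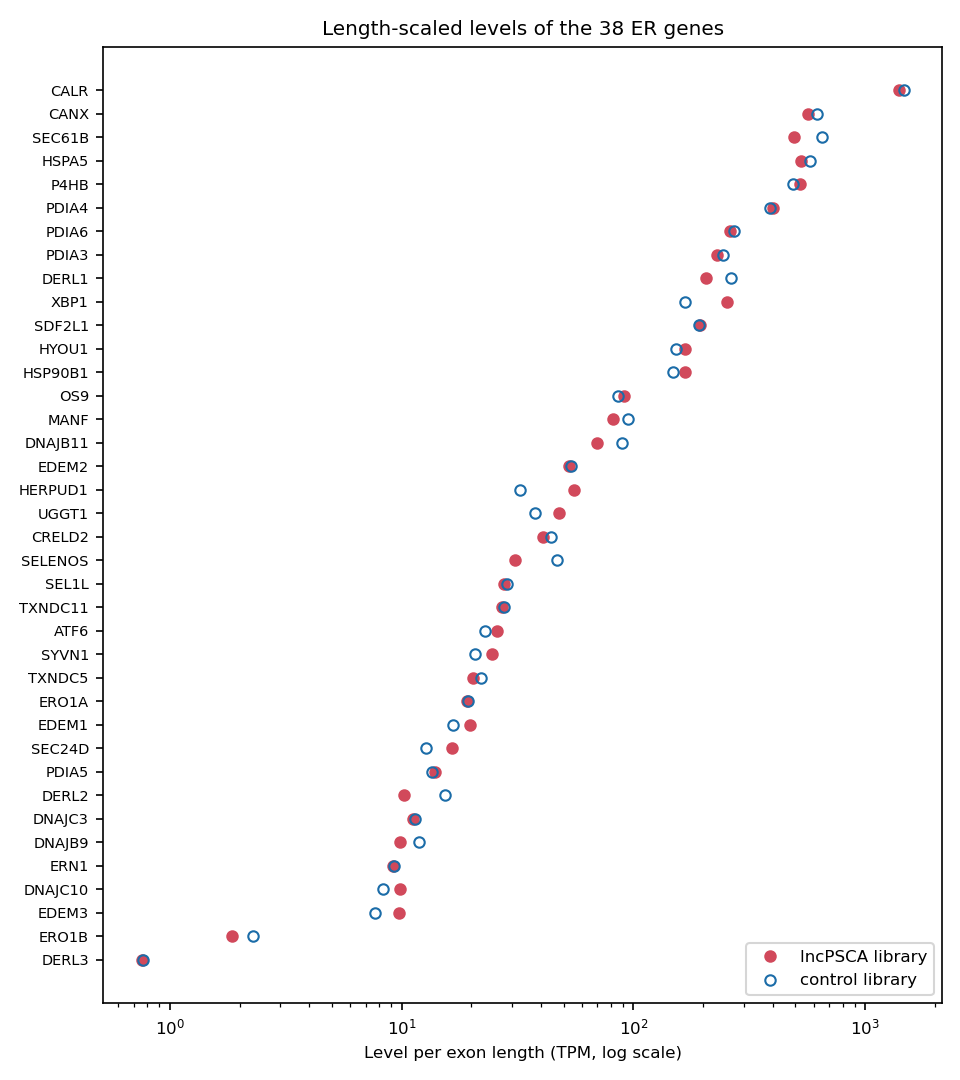
Level per exon length of each of the 38 genes in the lncPSCA library (filled) and the control library (open), in TPM on a log axis, ordered by the mean of both. The levels span from under 1 TPM for DERL3 to over 1000 TPM for CALR, and the points of a gene lie close together except for genes such as HERPUD1, XBP1 and SELENOS.

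Over all genes, the ratio of the libraries also moved with transcript length and abundance. With the length of the longest annotated transcript, the log2 ratio had a Spearman correlation of 0.24 across 14993 genes and 0.25 across the 37 members. With mean CPM the correlation was -0.230 across these 14993 genes and -0.0119 across the members. The 37 members are few and mostly abundant, so whether they follow the trend over all genes cannot be told. Genes of the same library pair share its depth and preparation and are not independent replicates. Of the members, 22 were among the 3860 most abundant genes (at least 59.3 CPM), and their median log2 ratio was -0.07 against -0.13 for those 3860 genes. After centring along mean expression the member median was 0.02, and after centring along length and GC content it was -0.04. The 10 members with transcripts of at least 5090 bases had a median of 0.02, and the 3749 genes of that length one of 0.15. HERPUD1 (2946 bases) and XBP1 (2173 bases) were above the middle 50% of genes of their length, and SELENOS (2444 bases) and DERL2 (4209 bases) were below it. They were not the only ones: SEC24D, for example, was also above it, and DERL1, DNAJB11, SEC61B and ERO1B were also below it.

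**Figure D3:**
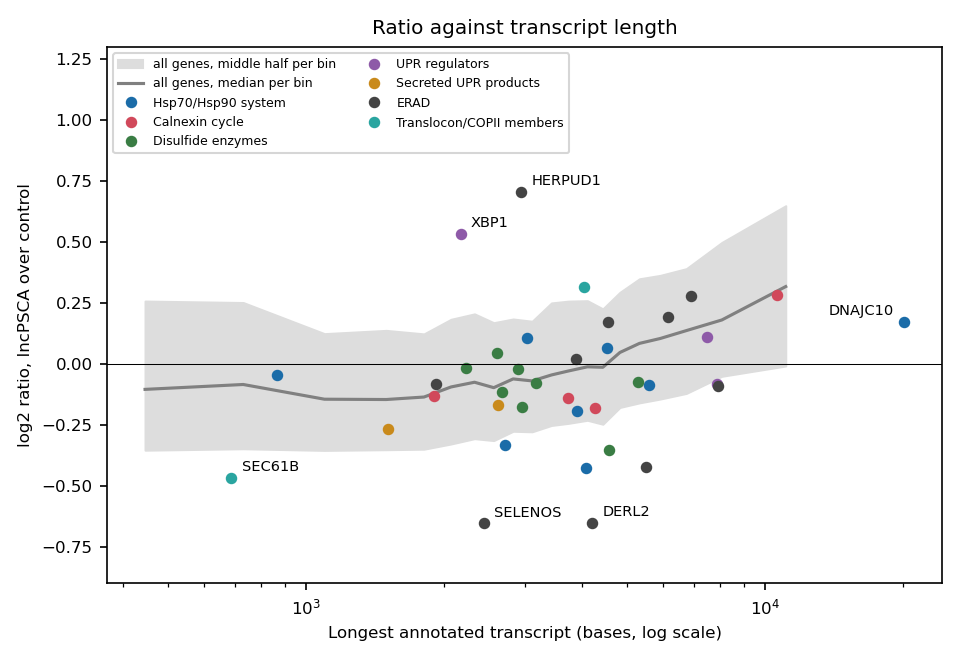
log2 ratio of lncPSCA over control for the 37 measured members against the length of the longest annotated transcript in bases (log axis), coloured by role. The grey line and band give the median and middle 50% of all genes in 20 bins of length. HERPUD1 and XBP1 lie far above the band, SELENOS and DERL2 lie far below it, and most members lie inside it or near its edge.

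Promoter windows from RefSeq (GRCh38.p14) matched 34 of the 38 members and were searched on both strands for 4 motifs. Only exact matches were counted and put in capitals, so variants of an element were missed. The motifs were the ERSE (CCAAT and CCACG with 9 bases between them), its type II form (ATTGG and CCACG with 1 base between them), the unfolded protein response element (UPRE, TGACGTGG) bound by ATF6 and XBP1, and the CARE (TGATGNAAN). The ERSE was present in 8 of 34 members (23.5%, exact 95% binomial interval 10.7% to 41.2%) and in 25 of 27305 genes with a window (0.0916%). The list was chosen by function and includes known UPR targets, so a higher share among members could be foreseen and is not a finding. The interval treats the members as random draws, which they are not. The type II form was in 3 members (HERPUD1, HYOU1 and SDF2L1) and 19 genes, and the UPRE was in 4 members (DNAJC10, HYOU1, TXNDC5 and TXNDC11) and 0.927% of genes. The CARE was in HERPUD1 alone among the members, and in 4.45% of all genes. In HYOU1 the UPRE overlaps 1 of its 2 type II elements.

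The ERSE copies of the members are shown to compare their spacers. Each is read in the direction of the motif, with the fixed letters in capitals and the spacer in lower case. HSP90B1 holds 2 copies, and the CANX copy was seen from 3 annotated starts.
HSPA5: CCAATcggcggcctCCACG
HSP90B1, copy farther from the start: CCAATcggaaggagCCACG
HSP90B1, copy nearer to the start: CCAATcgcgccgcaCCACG
CALR: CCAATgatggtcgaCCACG
CANX: CCAATcttcacactCCACG
PDIA6: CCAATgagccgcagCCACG
XBP1: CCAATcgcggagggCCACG
CRELD2: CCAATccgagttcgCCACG
ERO1B: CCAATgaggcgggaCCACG

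The members with an ERSE did not move as a block. Their log2 ratios ran from -0.35 (ERO1B) to 0.53 (XBP1) with a median of -0.15. The 26 members with a window and no ERSE match had a median of -0.06. Of the 8, 6 were below 0, as were 16 of those 26, 64.9% of all measured members and 51.9% of all genes. CALR and PDIA6, among the 6, changed sign with centring along mean expression. The 3 members with the type II form were at 0.71 (HERPUD1), 0.06 (HYOU1) and -0.04 (SDF2L1). A match is a description of the letters and not evidence of binding in these cells.

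**Figure D4:**
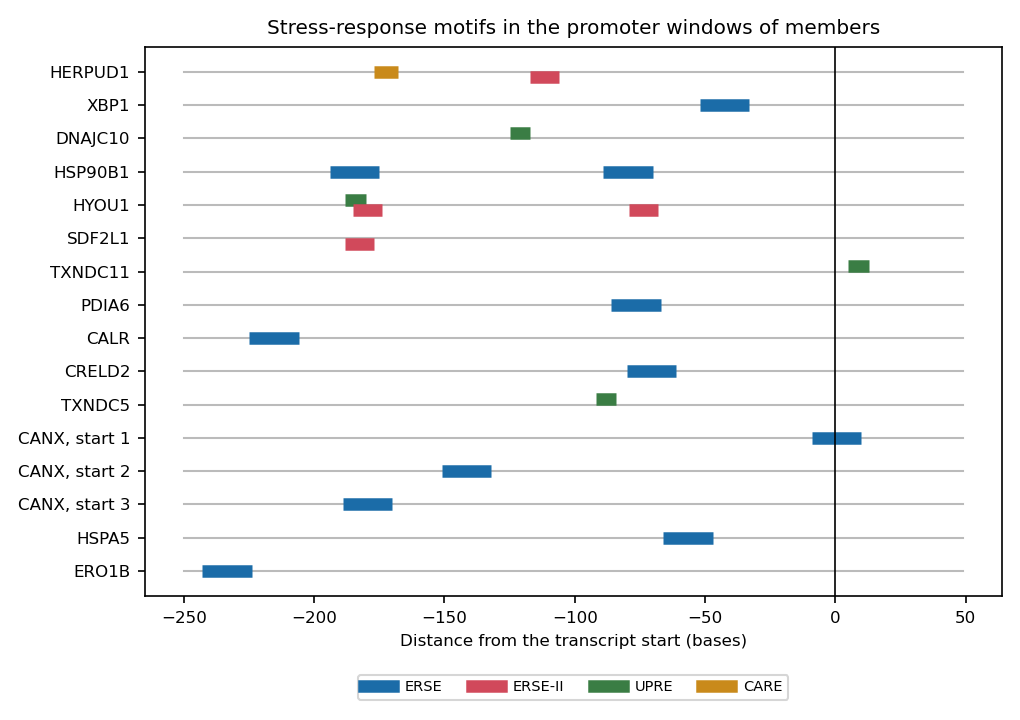
Positions of the 4 motifs in the promoter windows of the members that hold any, in bases from the transcript start, ordered from the highest log2 ratio (HERPUD1) to the lowest (ERO1B). CANX has 3 starts with the same ERSE, and HERPUD1 is the only member shown with a CARE.

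Other genes of the pathway were read from lists of their own. In the PERK and ATF4 arm, 6 of 11 genes were higher by the 1.5-fold rule and none was lower, with a median log2 ratio of 0.68. Over all genes the rule called 10.5% higher and 5.41% lower. All 11 genes of the arm had an interval above 1, against 27% of all genes. CHAC1, which degrades glutathione, was at 120 CPM in the lncPSCA library and 17.3 CPM in the control library (6.94-fold). DDIT4, an mTORC1 inhibitor, was at 1469 CPM in the lncPSCA library and 253 CPM in the control library (5.81-fold). SESN2 (3.51-fold) and the transcription factor ATF3 (2.08-fold) were also higher. These genes also respond to stresses outside the ER. The list was set beside the 38 ER genes with no test of the difference. Like the members, it was chosen with earlier results of these data known. The CARE was in 3 of its 11 promoter windows (ATF3, CHAC1 and ASNS), against 4.45% of all genes. The list was drawn up for the ATF4 arm, so a higher share could be foreseen and is not a finding. None of the 11 held an exact ERSE match. Only 0.0916% of all genes did, and variants were not searched, so this absence sets the arm apart from no other list.

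In the lists of further ER genes, those past 1.5-fold were all lower. The rule called 10.5% of all genes higher and 5.41% lower, and the median log2 ratio of the 3860 most abundant genes was -0.13. Of 30 other ER folding genes, 4 were lower and none was higher, with a median of -0.11. RCN2, a calcium-binding protein, was at 34.1 CPM in the lncPSCA library and 67.0 CPM in the control library (0.509-fold, 0.466 to 0.555). FKBP14, a prolyl isomerase, was at 0.584-fold (0.547 to 0.623), CALU (calumenin) at 0.630-fold and CNPY2 at 0.638-fold. Of 25 translocon, signal peptidase and oligosaccharyltransferase genes, 3 were lower, with a median of -0.25. These were OSTC, a subunit of the glycosylating complex (1340 reads in lncPSCA and 2004 reads in control, 0.600-fold), and the signal peptidase subunits SPCS2 (0.627-fold) and SPCS1 (0.640-fold).

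None of 23 further ERAD genes and none of 19 COPII and ER-Golgi genes met the rule. The median log2 ratio was -0.29 for the ERAD list and -0.19 for the COPII and ER-Golgi list. That of the 3860 most abundant genes was -0.13. VCP, the p97 ATPase, was at 533 CPM in the lncPSCA library and 703 CPM in the control library, and BAG6 at 330 and 329 CPM. Among the COPII and ER-Golgi genes, SURF4 was at 321 CPM in the lncPSCA library and 402 CPM in the control library, and TMED10 at 201 and 236 CPM. Of 14 other UPR signalling genes, CREB3L1 was lower, with 27 reads in the lncPSCA library and 48 in the control library (0.505-fold, 0.303 to 0.825), and the list median was -0.06. Of 19 cytosolic heat shock genes, 5 were lower and none was higher, with a median of -0.37. Over all genes 5.41% were lower and 10.5% higher. The lower heat shock genes were led by HSPA1B (0.432-fold), HSPA1A (0.489-fold), HSPA8 (0.495-fold) and DNAJB4 (0.581-fold). HSPA1A and HSPA1B are near-identical, so their split of reads is uncertain.

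**Figure D5:**
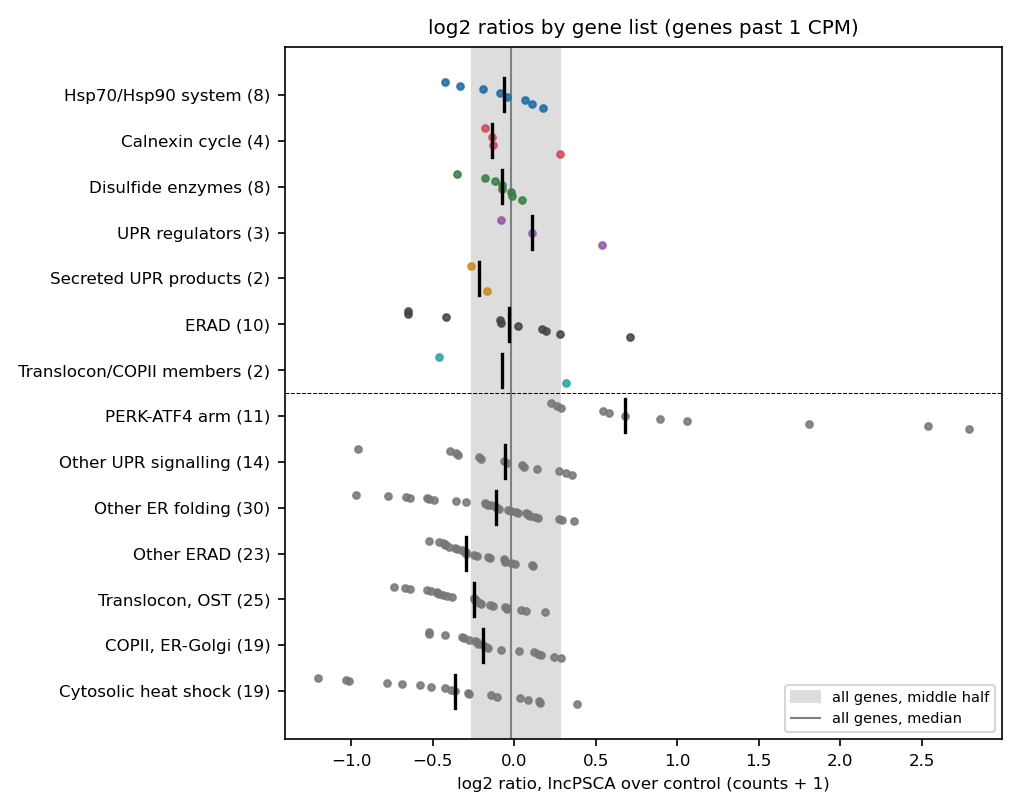
log2 ratio of lncPSCA over control for the measured genes of each list, with the number of genes in parentheses. Points are genes, black bars are list medians, and the grey line and band are the median and middle 50% of all genes. The role groups of the 38 ER genes (above the dashed line) have medians between -0.22 and 0.11, and the PERK-ATF4 arm has a median of 0.68.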

How the data were processed

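RNA-seq counts of 2 HGC-27 libraries were used. The authors deposited raw read counts per Ensembl gene, as whole numbers in 1 column per library. Per the submitters' processing notes, TopHat2, HTSeq and the build hg19 were used. Their versions, the annotation release and the strand setting are not stated. Without strand, reads of genes that overlap on opposite strands cannot be told apart, and 21 of the 38 members share exon bases with another gene in GENCODE release 29.

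Symbols were matched for 52181 of 63677 identifiers (81.9%). Library sizes were scaled by TMM (edgeR 4.0.16), with factors of 1.02 for lncPSCA and 0.979 for control. Folds are CPM ratios, with exact Clopper-Pearson 95% intervals that cover counting error only. PCR copies could not be recognised, so these intervals may be too narrow. log2 ratios use a pseudocount of 1. TPM used the exon union of GENCODE release 29 (GRCh38). Nothing was tested between groups, since each has 1 library. The functions were tested on simulated data. Motif letters are textbook knowledge of these elements, and the promoter sequences are RefSeq's (GRCh38.p14). The alternatives tried were scaling by total counts, by upper quartile or by DESeq2 1.42.0 size factors, other CPM minimums, pseudocounts, and centring of ratios along mean expression or along length and GC content (running medians over 501 genes, available for 97.1% of measured genes). The members, lists and rules were chosen with earlier results of these data known. Every member may be named. Of other lists, genes past 1.5-fold (at most 4 per direction by size) are named, or otherwise the 2 most abundant.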

Additional observations from a re-analysis of the deposited data

How the results depend on the processing

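The 2-fold counts of members (0 higher, 0 lower) kept their value under all alternatives run. The member median ran from -0.11 to 0.02, above 0 with centring along mean expression only. The 1.5-fold counts moved with 4 settings. Scaling to total counts gave 2 members higher, with XBP1 added. Centring along mean expression gave 2 higher and 1 lower, with XBP1 added and SELENOS lost. Centring along transcript length and GC content gave 1 lower, without SELENOS, and leaving out the members that share exon bases, an alternative chosen after seeing the data, gave 1 lower, without DERL2. Medians by role moved mainly with centring. That of the calnexin cycle was -0.0747 with total counts, 0.00711 along expression and -0.0633 along length and GC content. In the same order of centrings, the UPR regulators were at 0.23 and -0.10, ERAD at 0.0958 and 0.0804, and the transport pair at 0.0453 and 0.0333. The secreted products were at -0.0484 along length and GC content. The cause of these shifts was not tested. Small ratios changed sign for 7 members under either centring (among them CALR, PDIA4 and PDIA5 in both), 3 under total counts and 1 under upper-quartile scaling, none of them past 1.5-fold. Searching the forward strand alone left the ERSE in 5 of 34 members (14.7%), the type II form in 1 (2.94%), the UPRE in 3 (8.82%) and the CARE in 0%. No paired analysis was possible because each group has 1 library. The spread between cultures was not measured, and members of low depth such as DERL3 and ERO1B could not show small differences.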
